A study of Mus musculus with 3 samples.

Results

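The mitosis genes are a list of 36 genes whose products build the spindle, attach chromosomes to it, or switch mitosis on and off. The members were chosen with earlier results of these data known, and all 36 had a row among the 9781 gene rows used. They are described here as a summed score and gene by gene in mouse urogenital sinus (UGS, from which prostatic buds grow before birth) and prostate. The series holds 3 droplet single cell RNA-seq libraries labelled as normal tissue, 1 each from male UGS at E18.5, prostate at P14 and prostate at P35, and no treatment is labelled. Neither strain nor genotype is given in the labels, the study's methods describe mice of mixed C57BL/6 and 129S1/SvImJ background, and the table carries an *EGFP* reporter row. Every cell is a column of 1 table, with barcodes that end in 1, 2 or 3. Since the labels do not say which ending belongs to which tissue, the endings are called barcode sets 1, 2 and 3, no age is assigned to them, and no comparison between ages was made. With 1 library per group there is no replicate error and no test. All 95% intervals cover counting error only, and cells of 1 set are not replicates.

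During mitosis, Cdk1 bound to a cyclin phosphorylates many proteins, condensins compact the chromosomes, and kinetochores at the centromeres hold them to spindle microtubules. The spindle checkpoint restrains the anaphase promoting complex (APC/C) until every kinetochore is attached. With its activator Cdc20 and the ubiquitin carrier Ube2c, the APC/C then marks cyclins for destruction, and the central spindle guides division of the cell. Most of these genes are transcribed late in the cell cycle, and their mRNAs are used as a sign of cycling cells.

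Many promoters of this kind carry a CCAAT box, bound by NF-Y, and a cell cycle homology region, often TTTGAA. RefSeq promoters on GRCm38.p6, each with 250 bases before and 50 bases after the gene start, were found for 32 of 36 members. *Ccna2*, *Stmn1*, *Smc4* and *Tpx2* had no entry in the promoter set used. Among 4 motifs searched on both strands, CCAAT was in 27 of 32 members (84.4%) and in 37.4% of all 32851 promoters. TTTGAA was in 24 of 32 (75.0%) and in 17.9% of all promoters, and both motifs together were in 23 members and 6.95% of all promoters. The related TTTAAA was in 9 of 32 members against 13.2% of all promoters. GGGCGG, a GC box, was in 18 of 32 members against 35.7% of all promoters. A match describes the letters and is not a measured binding site. Printed are *Plk1* and *Ube2c*, which hold both motifs, and *Gas2l3*, whose values are described apart in the results. *Gas2l3* has CCAAT without TTTGAA, as do *Bub1*, *Cenpe* and *Nek2*, whose set 1 ratios were below 0. In the sequences, capitals mark CCAAT. They also mark TTTGAA, and each motif is marked on either strand.
Plk1, chr7:122159185-122159484, plus strand: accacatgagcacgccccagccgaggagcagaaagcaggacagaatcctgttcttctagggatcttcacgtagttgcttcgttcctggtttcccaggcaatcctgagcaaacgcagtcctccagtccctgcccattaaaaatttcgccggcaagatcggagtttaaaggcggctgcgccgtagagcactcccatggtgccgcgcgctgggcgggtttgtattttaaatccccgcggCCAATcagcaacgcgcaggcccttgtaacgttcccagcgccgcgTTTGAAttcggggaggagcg
Ube2c, chr2:164769679-164769978, plus strand: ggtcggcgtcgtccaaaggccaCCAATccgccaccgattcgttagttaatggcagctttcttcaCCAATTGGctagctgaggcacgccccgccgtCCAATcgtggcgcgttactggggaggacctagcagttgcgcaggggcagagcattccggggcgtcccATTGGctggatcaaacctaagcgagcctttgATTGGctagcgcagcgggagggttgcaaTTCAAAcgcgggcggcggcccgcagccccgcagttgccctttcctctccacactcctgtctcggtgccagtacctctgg
Gas2l3, chr10:89443918-89444217, minus strand: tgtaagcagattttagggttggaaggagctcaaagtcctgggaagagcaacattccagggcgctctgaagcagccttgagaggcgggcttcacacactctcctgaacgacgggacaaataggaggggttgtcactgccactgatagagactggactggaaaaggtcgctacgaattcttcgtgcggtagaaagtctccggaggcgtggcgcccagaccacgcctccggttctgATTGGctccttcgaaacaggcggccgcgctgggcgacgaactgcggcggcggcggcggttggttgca

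After cells with fewer than 200 genes were left out, 766, 5350 and 8360 cells remained in sets 1, 2 and 3. Depth differed widely, with medians of 19357, 1738 and 1801 unique molecular identifiers per cell (UMIs, tags that count captured mRNA molecules once). The study's stated cell number for 1 tissue equals that of set 1, while those for the other tissues equal neither set 2 nor set 3. Cells were classed from marker genes after clustering without the cell cycle genes, so that no cluster was led by the members. Epithelium-like cells numbered 118, 1557 and 2883, and fibroblast-like cells 434, 2077 and 2877. Most epithelium-like cells fell in cluster 4 in set 1 (73.7%), and the largest share was in cluster 5 in set 2 (42.1%) and cluster 2 in set 3 (46.3%), so the class is not made up alike in the sets. The fibroblast-like class likewise had its largest share in clusters 6, 3 and 1. Cluster 6 held 250 of the 434 fibroblast-like cells of set 1. Among its 10 leading genes were *Myod1*, *Msc* and *Myf5*, genes of muscle precursors. The others were *EGFP*, *Sfrp2*, *Tmem119*, *Col26a1*, *Col9a2*, *Pdlim3* and *Car3*. None of the 10 is on the fibroblast list, so the name of cluster 6 rests on the markers it carried and not on its leading genes. Between 38.3% and 53.3% of the cells of cluster 5 also had a UMI of the fibroblast marker *Col3a1*, and this cluster carried 6 smooth muscle markers, with *Actg2* in 13.3%, 37.6% and 28.5% of its cells in sets 1, 2 and 3. In sets 1, 2 and 3, 6.4%, 0.385% and 0% of cluster 6 cells had *Myod1*, a muscle gene, and 5.6%, 0% and 0% had *Myf5*. *Col3a1* was detected in 100%, 94.4% and 93.8% of them. *Actg2*, a smooth muscle gene, was detected in 18%, 73.5% and 51.5% of cluster 6 cells, and the cluster carried 6 smooth muscle markers beside 8 fibroblast ones. Values of the score ratio without either cluster are given with it.

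Summed over the 36 members, the score was 2312 CPM (UMIs of the members per 1000000 UMIs of all genes) in set 1, 962 in set 2 and 937 in set 3. The 5 members that are also expressed outside mitosis, namely *Stmn1*, *Hmgb2*, *Cks1b*, *Smc4* and *Ckap5*, held 64.7% of all member UMIs. *Stmn1*, which destabilizes microtubules, held 27.1%, and *Hmgb2*, a chromatin protein, 22.5%. These shares pool the sets: the 5 genes held 59.9%, 66.6% and 72.6% of member UMIs in sets 1, 2 and 3, and in set 2 *Hmgb2* (3587 UMIs) was above *Stmn1* (3076). Without those 5 the score was 928, 321 and 257 CPM. Set 1 lay above the other sets on both scores, and it was also the deepest.

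In set 1 the score was lowest in epithelium-like cells, at 1126 CPM (95% Poisson interval 1099 to 1154), against 2580 CPM (2547 to 2614) in fibroblast-like cells. Smooth muscle-like cells were at 3669 CPM, glia-like cells at 3777 and neuron-like cells at 5286. In set 2 the epithelium-like and fibroblast-like scores were 935 and 987 CPM, and in set 3 they were 1035 and 760 CPM. Smooth muscle-like cells of set 3, at 572 CPM, were the lowest named class there. *Stmn1* alone made up 3078, 1010 and 1628 CPM of the neuron-like scores in sets 1, 2 and 3, and without the 5 broad members the class had 1348 CPM in set 1, 58.8 CPM in set 2 and 64.6 CPM in set 3. The last 2 sets held 16 and 18 neuron-like cells.

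**Figure D1:**
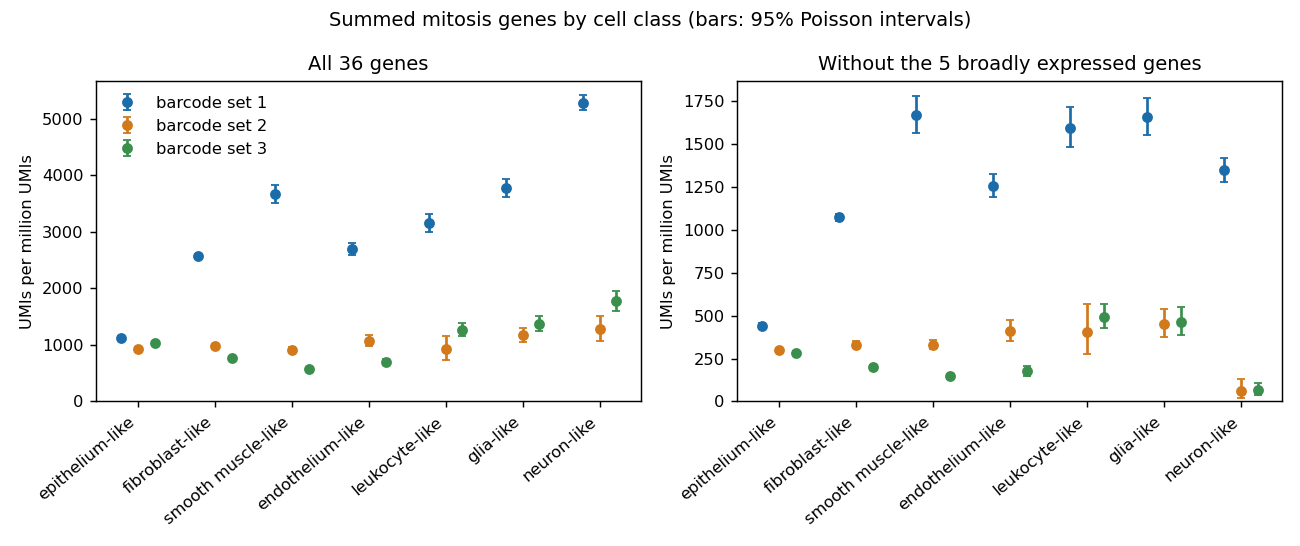
UMIs of the mitosis genes per 1000000 UMIs (vertical axis) in 7 marker-named cell classes (horizontal axis), for all 36 genes and without the 5 broadly expressed ones; points are summed rates of 1 barcode set and bars are 95% Poisson intervals. In each class the point of set 1 is the highest, with and without the broad genes, and the neuron-like class of sets 2 and 3 drops to 58.8 and 64.6 on the right.

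Between the epithelial and stromal compartments that the study separates, the log2 ratio of the score (epithelium-like over fibroblast-like) was -1.20 in set 1 (95% interval -1.24 to -1.16). It was -0.078 (-0.13 to -0.022) in set 2 and 0.44 (0.39 to 0.50) in set 3. The epithelium-like score of set 1 was the lower one under the alternatives that gave a ratio of summed UMIs, from -1.66 to -0.66. As a difference in mean deposited log value, which is another scale, the sets gave -0.067, 0.028 and 0.042. The set 2 value took either sign, from -0.61 to 0.087, and gives no stable direction. Without cluster 5 the ratios were -1.66, -0.16 and 0.37, and without cluster 6 they were -0.99, 0.087 and 0.635 in sets 1, 2 and 3. In set 3 the sign turned to -0.13 (-0.20 to -0.068) when only cells with at least 500 genes were kept, so the higher epithelium-like score there depends on the cell filter. Epithelium-like cells were the deeper class in each set, with medians of 44800, 4046 and 3563 UMIs against 16450, 1380 and 1382 in fibroblast-like cells. With every cell thinned to 900 UMIs, the ratio was -0.66 (-0.92 to -0.41) in set 1 and 0.36 (0.26 to 0.46) in set 3.

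Smooth muscle-like over fibroblast-like cells gave log2 ratios of the score of 0.51 (0.44 to 0.57), -0.11 (-0.19 to -0.030) and -0.41 (-0.50 to -0.33) in sets 1, 2 and 3. In set 1, 14 members had an interval above 0 and 0 below, in set 2 there were 1 and 3, and in set 3 there were 0 and 7. The share of all genes with such an interval was not counted. At least 2-fold higher were 6 of 36 members in set 1 (background 12.4%), 2 of 33 in set 2 (9.17%) and 1 of 33 in set 3 (11.1%). At least 2-fold lower were 0 of 36 in set 1 (background 14%), 1 of 33 in set 2 (13.7%) and 7 of 33 in set 3 (18.2%). *Stmn1* had 840.5, 160.3 and 117.1 CPM in smooth muscle-like cells. The 41 smooth muscle-like cells of set 1 were mixed, since the 18 with no member after thinning held 44220 CPM of the erythroid marker list and the 9 mitosis-positive ones, defined next, 153 CPM. The part of red cell RNA in the set 1 ratio was not tested.

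To compare cells at 1 depth, each was thinned to 900 UMIs, and a cell with UMIs of at least 3 members was called mitosis-positive, which is a range of the score and not a cell type. In this way 135 of 759 cells in set 1 were positive (17.8%, 95% Clopper-Pearson interval 15.1 to 20.7%), 314 of 5008 in set 2 (6.27%, 5.61 to 6.98%) and 249 of 7667 in set 3 (3.25%, 2.86 to 3.67%). Without thinning the numbers of positive cells were 660, 1047 and 1146. Just under the limit, with 2 members, were 68, 364 and 420 cells, and just inside it, with 3, were 40, 127 and 87.

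Among epithelium-like cells 11.97% (6.70 to 19.3%), 6.07% (4.94 to 7.38%) and 4.96% (4.19 to 5.82%) were positive in sets 1, 2 and 3. Fibroblast-like cells gave 16.7% (13.3 to 20.5%), 6.18% (5.13 to 7.37%) and 2.60% (2.01 to 3.30%), and without cluster 6 14.8%, 5.22% and 2.21%. The intervals of the classes overlapped in sets 1 and 2 and lay apart in set 3. In set 2 they lay apart too, with the lower share in epithelium-like cells, with at least 500 genes per cell (6.82% against 10.7%) and with at least 5 members (0.775% against 2.13%). With at least 500 genes per cell the set 3 shares were 5.88% and 6.82%, and with at least 5 members required they were 1.41% and 1.40%. The set 3 intervals also overlapped without the 5 broad members (1.44% and 1.28%) and with each cell classed on its own (4.94% and 3.13%), so the set 3 gap depends on limits, genes and classing. Glia-like cells of set 2 (19 of 128, 14.8%) had the highest share of any named class in that set, with an interval (9.18 to 22.2%) that overlapped those of leukocyte-like (3 of 23), endothelium-like (6 of 89) and neuron-like cells (1 of 15). Thinning kept only 128 of the 192 glia-like cells of set 2, whose median was 1066 UMIs, but 1548 of 1557 epithelium-like cells. Smooth muscle-like cells ranged from 23.1% in set 1 and 5.28% in set 2 to 0.848% in set 3, where 14 of 1652 cells were positive. No neuron-like cell of set 3 was positive (0 of 18, with a Clopper-Pearson interval up to 18.53%, where 3 counts would be 16.7%).

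Epithelium-like clusters of set 3 differed among themselves. Cluster 2, led by *Lgals7*, *Serpinb5* and *Sfn*, had 0.991% positive cells (0.529 to 1.69%). In contrast, cluster 4, led by *Asprv1*, *Clca1* and *Wfdc3*, had 8.37% (6.66 to 10.4%), and cluster 5, led by *Lamb3* and *Shh*, 7.94% (5.89 to 10.4%). Cluster 14, with few cells, had 4 positive of 21 (19.0%, 5.45 to 41.9%). Median depths before thinning were 2289, 6961, 5884 and 967 UMIs in clusters 2, 4, 5 and 14. Positive epithelium-like cells of set 3 had a median of 7077 UMIs and those with no member 3335, and in fibroblast-like cells the medians were 2411 and 1463. The part that depth, or droplets with more than 1 cell, plays in the positive shares was not tested.

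**Figure D2:**
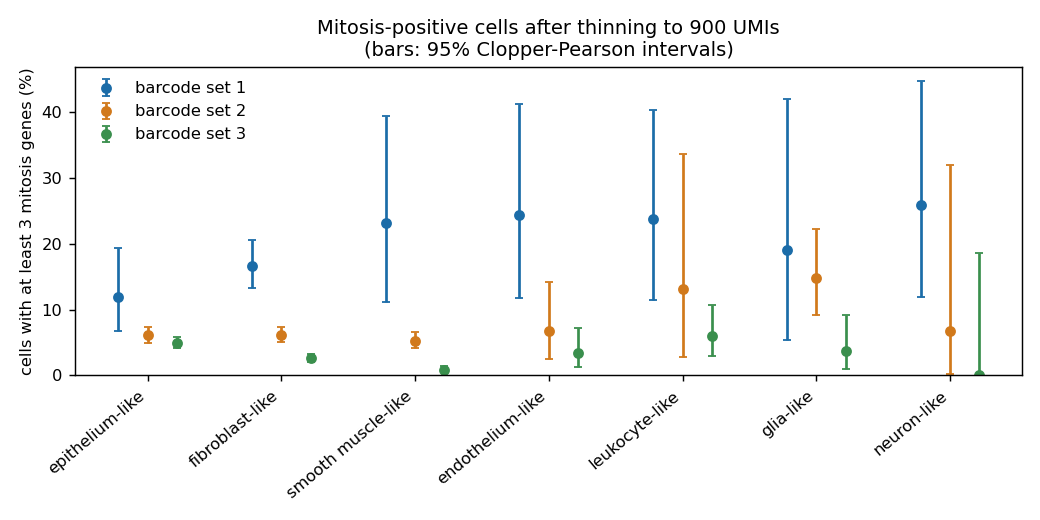
Share of cells with UMIs of at least 3 mitosis genes after thinning to 900 UMIs (vertical axis, %) in 7 cell classes (horizontal axis) of the 3 barcode sets; bars are 95% Clopper-Pearson intervals. Smooth muscle-like cells run from 23.1% in set 1 to 0.848% in set 3, while small classes such as neuron-like cells have wide bars.

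Gene by gene, in set 1 the interval of the epithelium-like over fibroblast-like ratio was below 0 for 34 of 36 members and above 0 for *Gas2l3* alone. Below 0 in set 2 were 6 members and above it 3, and in set 3 there were 5 below and 15 above. The share of all genes with such an interval was not counted, so these numbers, and those by role below, have no background. At least 2-fold lower in set 1 were 26 of 36 members, where 27.7% of all 7915 genes tested were, and 1 was at least 2-fold higher, where 15.7% of all genes were. The count of lower members in set 1 was 17 without the 5% of cells with the most UMIs, 19 without cluster 6 and 34 without cluster 5. In set 2, 2 of 35 members were lower (background 21.2%) and 2 higher (15.0%), both below the background. With all features and cell cycle regression, 14 were lower and 0 higher in set 2, where the fibroblast-like class then held a cluster led by members. In set 3, 7 of 36 were higher, close to the background of 20.5%, and 2 were lower, where 23.3% of genes were. These set 3 counts became 3 higher and 7 lower with at least 500 genes per cell, and 12 higher and 1 lower without cluster 6. Member medians of the log2 ratio were -1.25, -0.11 and 0.59, beside -0.22, -0.083 and 0.10 over all genes tested.

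*Cdk1*, the kinase that drives entry into mitosis, showed rates in epithelium-like cells of 27.3, 31.1 and 23.3 CPM (sets 1, 2 and 3) and in fibroblast-like cells of 106.9, 33.5 and 14.5 CPM. The resulting log2 ratio was -1.97 (-2.22 to -1.72) in set 1, -0.11 in set 2 and 0.69 (0.31 to 1.09) in set 3. With at least 500 genes per cell the set 3 ratio turned to -0.19 for *Cdk1*, and the positive set 3 ratios of *Ccna2* (-0.12), *Mki67* (-0.25), *Cenpf* (-0.38), *Smc4* (-0.019), *Cdca3* (-0.26) and *Stmn1* (-0.046) given next changed sign as well. *Ccna2*, the cyclin of S and G2 phase, followed it with -1.88, -0.45 and 0.98. *Cks1b*, a small Cdk-binding protein, was instead lower in epithelium-like cells of every set, at -1.44, -0.55 and -0.33, with 86.1, 120.0 and 65.4 CPM against 233.3, 175.3 and 82.2.

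Among chromosome genes, *Mki67*, which coats mitotic chromosomes, had log2 ratios of -1.78, -0.24 and 0.63. *Smc4*, a core condensin subunit, gave -0.89, -0.24 and 0.54, and *Hmgb2* gave -0.81, 0.089 and 0.40. *Ncaph*, another condensin subunit and by its median ratio the highest of this role, had -0.90, 0.36 and 0.71, with intervals that held 0 in sets 2 and 3. All 5 members of the role were below 0 in set 1 by their intervals, and 3 were above 0 in set 3.

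At the centromere and kinetochore, *Cenpa*, the centromeric histone, had ratios of -1.18, -0.089 and 0.23, and *Cenpf* had -1.52, 0.19 and 0.69. *Cenpe*, a kinetochore motor, moved from -1.61 in set 1 over -0.54 in set 2 to 1.91 (1.03 to 2.94) in set 3. *Kif2c*, which takes microtubules apart, rested on few UMIs outside set 1, with 9 and 2 in set 2 and 16 and 0 in set 3. All 6 members of this role lay below 0 in set 1.

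Spindle members split. Rates of *Stmn1* were 245.2, 198.6 and 309.8 CPM in the epithelium and 648.1, 166.6 and 196.6 CPM in fibroblast-like cells, hence ratios of -1.40, 0.25 and 0.66. Its set 2 ratio was -0.047 with at least 500 genes per cell and -0.37 with all features and cell cycle regression. *Ckap5*, a microtubule polymerase, had -0.73, -0.046 and 0.35. *Kif22*, a chromosome-arm motor, had -1.99, -0.55 and -0.93. *Gas2l3*, which links actin and microtubules, stood against the other members in set 1 and had the lowest ratio of all in set 2, with 1.19 (0.70 to 1.68) there, -1.91 (-2.61 to -1.22) in set 2 and 1.27 (0.71 to 1.89) in set 3. Glia-like cells had 55.5, 21.96 and 87.4 CPM of it and leukocyte-like cells 41.7, 36.6 and 60.5 CPM, the highest rates of the named classes in every set. These rest on 32, 6 and 25 and on 20, 3 and 25 UMIs.

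*Prc1*, the central spindle bundler, was lower in epithelium-like cells of all sets, with 19.9, 21.4 and 16.2 CPM against 50.9, 33.3 and 22.1 CPM. Its ratios were -1.36, -0.64 and -0.45. *Ect2*, which starts the cleavage furrow, gave -0.86, 0.17 and 1.93, the last from 71 and 5 UMIs.

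APC/C partners went different ways. *Cdc20* reached 27.0, 12.7 and 8.13 CPM in the epithelium and 52.0, 23.8 and 21.4 CPM in fibroblast-like cells, with ratios of -0.95 (-1.22 to -0.68), -0.91 (-1.33 to -0.50) and -1.40 (-1.78 to -1.003). *Ube2c* was at 87.0, 45.6 and 44.9 CPM against 155.6, 27.5 and 18.1 CPM, with ratios of -0.84 (-0.99 to -0.69), 0.73 (0.41 to 1.05) and 1.31 (0.98 to 1.66). So in sets 2 and 3 the activator was lower and the ubiquitin carrier higher in epithelium-like cells. With all features and cell cycle regression the set 2 ratio of *Ube2c* was -0.070 (-0.35 to 0.22), so its direction there depends on the setting.

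*Plk1* and *Aurka*, kinases that mature the centrosomes and spindle, were sparse outside set 1. *Plk1* had 32 and 116 UMIs in epithelium-like and fibroblast-like cells of set 1 (ratio -1.18), 19 and 4 in set 2 (1.05) and 27 and 2 in set 3 (1.86), and the last 2 intervals held 0. *Aurka* had ratios of -1.04, 0.87 and -0.12. Of the remaining members, *Depdc1a* was lower in epithelium-like cells of every set (-2.07, -1.20 and -1.14) and *Cdca3* gave -1.24, -0.11 and 0.78. *Prc1*, *Depdc1a*, *Cdc20* and *Cks1b* were the 4 members below 0 by their intervals in all sets, and none was above 0 in all.

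**Figure D3:**
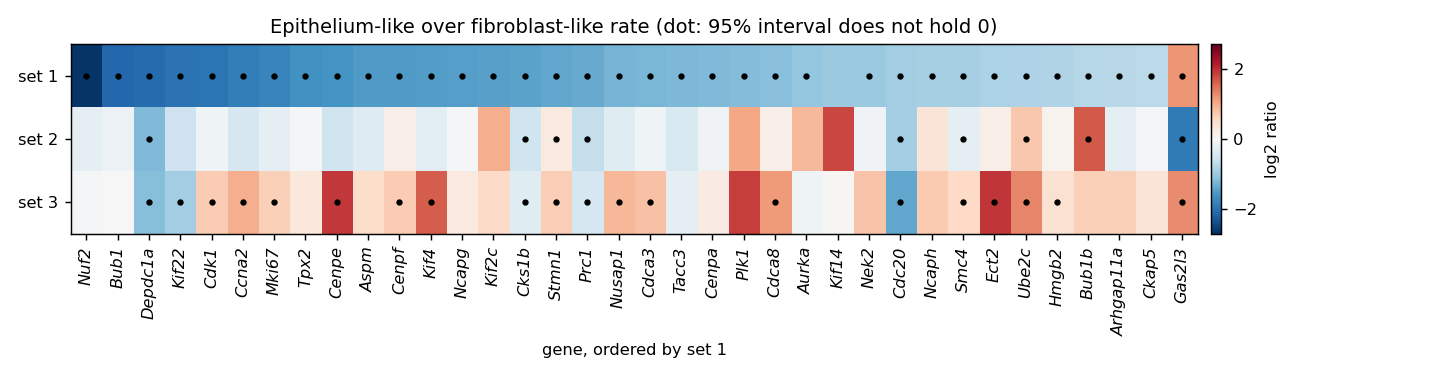
Log2 ratio of each gene's UMI rate in epithelium-like over fibroblast-like cells (colour) for the 36 mitosis genes (horizontal axis, ordered by set 1) in the barcode sets (vertical axis); a dot marks a 95% interval that does not hold 0. Set 1 has 34 dotted genes below 0 and *Gas2l3* above it, and set 3 has 15 above and 5 below. The share of all genes with such an interval was not counted.

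Whether members occur in the same cells was asked by comparing each member's rate in cells with UMIs of at least 4 of the other members to its rate in cells with none of the others. As first designed, cells were chosen on all their UMIs. In set 1 this could not be read, because 579 of 766 cells had at least 4 members and only 19 had none. Those 19 were shallow, with a median of 1324 UMIs against 24270, and 29 of 36 members were at 0 in the cells with none of the others. Of the other 7 members, 3 had an interval above 0. In set 2, 757 cells had at least 4 members and 2072 had none, at medians of 5377 and 1374 UMIs. In set 3 there were 712 and 3644 cells, at medians of 9316 and 1452 UMIs. Intervals were above 0 for 31 of 32 members with a fold in set 2 and for 31 of 31 in set 3, while 4 and 5 members were at 0 in the cells with none. Their median log2 folds were 3.66 and 3.42. At least 2-fold higher were 28 and 29 of the members with a fold. Among genes that are no member, 10.2% and 13.4% were, in cells with at least 4 members over cells with none. The share of all genes with an interval above 0 was not counted.

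The cells compared thus differed in depth. A choice of cells after thinning to 900 UMIs was therefore added, after the values above had been seen, and it is not the planned comparison. It left 95, 187 and 162 cells with at least 4 members and 317, 3010 and 5033 with none, at median depths of 27910 and 18710, 2404 and 1760, and 5018 and 1862 UMIs. Every member then had a higher rate beside other members. At least 2-fold higher were 36, 35 and 36 of the members with a fold in sets 1, 2 and 3. Among genes that are no member, 10.3%, 13.2% and 14% were, in cells with at least 4 members over cells with none. The members were chosen with earlier results of these data known, so neither choice of cells gives an independent sign that they occur together. Medians of the log2 fold over members above 0 in both groups of cells were 5.66, 4.52 and 5.30 in sets 1, 2 and 3. *Ccna2* had 222.6, 81.1 and 99.9 CPM in cells with at least 4 of the other members and 0.960, 2.75 and 1.01 CPM in cells with none. *Cenpf* had log2 folds of 7.43, 4.77 and 5.90 and *Mki67* of 5.75, 4.73 and 6.23. *Plk1* gave 7.44, 4.96 and 6.31 from 3, 4 and 4 UMIs in the cells with none. *Depdc1a* was at 0 in such cells of set 2.

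After thinning, *Gas2l3*, *Cks1b* and *Ckap5* were the 3 lowest members in every set. With all UMIs they and *Cdc20* were the 4 lowest in sets 2 and 3. After thinning, *Gas2l3* had folds of 1.01 (0.56 to 1.46), 1.74 and 1.33 on the log2 scale, and with all UMIs it had 0.38 in set 2, with an interval that held 0, and 1.35 in set 3. *Cks1b* had 1.80, 1.27 and 2.25 after thinning and 1.18, 0.56 and 1.03 with all UMIs. Of these 4 members, *Cdc20* moved most with the choice of cells, with 2.64 and 3.51 in sets 2 and 3 after thinning and 0.68 and 0.69 with all UMIs. Its rates were 10.7 and 6.55 CPM in the cells with none, after thinning, in sets 2 and 3.

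**Figure D4:**
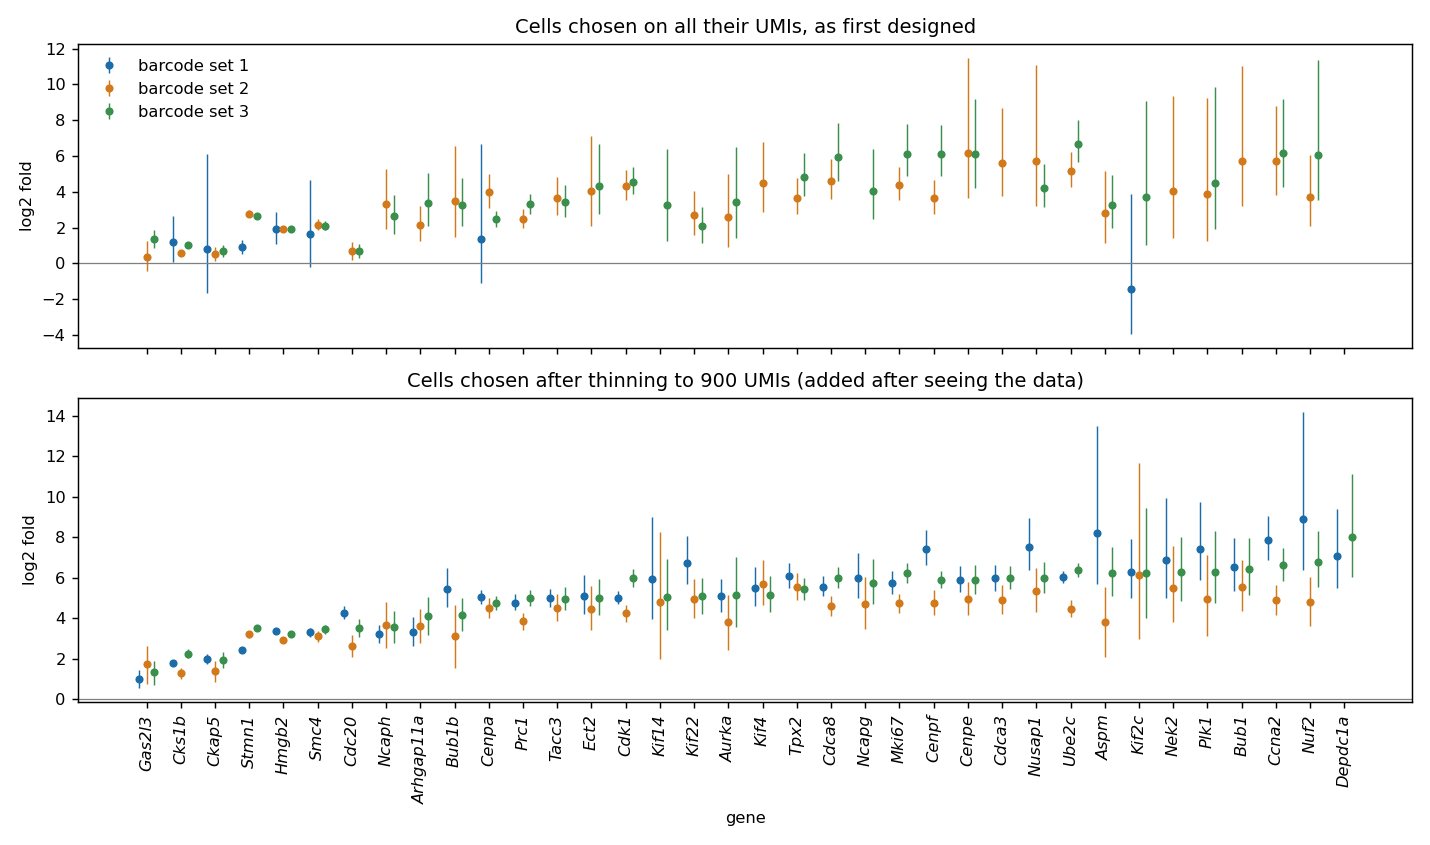
Log2 fold (vertical axis) of each mitosis gene (horizontal axis) in cells with at least 4 of the other members over cells with none, for cells chosen on all their UMIs (top) and after thinning to 900 UMIs (bottom); bars are 95% intervals and genes at 0 in the cells with none are left out. Few genes of set 1 can be drawn at the top, and *Gas2l3*, *Cks1b* and *Ckap5* are lowest at the bottom.

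Other genes of the cell cycle were read in the same cells, from lists chosen with earlier results of these data known. On all UMIs, at least 2-fold higher in cells with at least 4 members were 19 of 26 other mitosis genes in set 2 and 20 of 26 in set 3. The background over genes that are no member was 10.2% and 13.4%. For S phase genes these counts were 19 and 16 of 24, for regulators 7 and 6 of 14, and for chromatin and tubulin genes 3 of 12 and 4 of 13. In set 1, where 19 cells had none, 1 of 27, 3 of 24, 0 of 14 and 2 of 13 were higher, at a background of 3.13%. After thinning the counts in sets 1, 2 and 3 were 26 of 27, 24 of 26 and 25 of 26 for other mitosis genes. They were 23, 22 and 22 of 24 for S phase genes, 12 of 14, 7 of 13 and 8 of 14 for regulators, and 12 of 13, 6 of 12 and 11 of 13 for chromatin and tubulin genes, at backgrounds of 10.3%, 13.2% and 14%.

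By the rule for named genes, on all UMIs, *Sgo2a*, *Spc25* and *Shcbp1* were the highest other mitosis genes by median fold and *Zwint*, *Lmnb2* and *Cenpl* the lowest. *Shcbp1* had log2 folds of 4.40 and 6.79 in sets 2 and 3. After thinning *Knl1*, *Iqgap3* and *Melk* were highest instead, and *Zwint*, *Bub3* and *Cenpl* lowest. *Zwint*, a kinetochore gene, had -0.43 and 0.11 on all UMIs and -0.21, -0.33 and -0.17 in sets 1, 2 and 3 after thinning, the last with an interval that held 0. On all UMIs *Mcm10*, a gene of replication initiation, was among the highest of the S phase list, with log2 folds of 4.70 in set 2 (40 and 1 UMIs) and 3.16 in set 3 (47 and 4 UMIs), while *Nasp*, *Slbp* and *Rpa2* were lowest. After thinning *Mcm10* was not among the 3 highest. Among regulators *Foxm1*, *Mybl2* and *E2f2* were highest after thinning, and *E2f2*, *E2f8* and *Mybl2* on all UMIs. *Cdkn1c* and *Cdkn1b*, inhibitors of cyclin-dependent kinases, and the G1 cyclin *Ccnd2* were lowest, and *Ccnd2* had -0.29 and -1.86. *Selenoh*, *Cenpw* and *Cbx3* led the chromatin list and *Hist2h2ac*, *Anp32e* and *H2afz* closed it. This order changed with thinning, after which *Tubb4b*, *Ptma* and *Ran* were lowest and *Hist2h2ac* was among the highest 3, from 12, 0 and 2 UMIs in cells with at least 4 members, too few to rank it.

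The genes outside the members and cell cycle lists with the highest lowest-of-sets fold depended wholly on the choice of cells. On all UMIs they were *Rab25*, *Gata3*, *Tmpo*, *Ptprf*, *Tspan8*, *S100a14*, *Cldn3*, *Lsr*, *Stard10* and *Cdc42ep5*. *Rab25* and *Cldn3* are on the epithelial marker list, and each of the 10 rested on 1 to 5 UMIs in the 19 cells of set 1. After thinning they were *Neil3*, *Cenpn*, *Lockd*, *Bard1*, *Aunip*, *Cenpu*, *Mtfr2*, *Asf1b*, *Mybl1* and *Pole*, among them the DNA glycosylase *Neil3* with log2 folds of 7.11, 5.08 and 5.97. None of the 10 was shared. The thinned list was adopted after the designed one had been seen.

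Thinned cells with UMIs of at least 3 S phase genes made up 36.3% of mitosis-positive cells in set 1 (49 of 135), 16.2% in set 2 (51 of 314) and 16.5% in set 3 (41 of 249). Read the other way, they were 57.0%, 43.6% and 28.5% of the S phase-positive cells. Among all thinned cells the S phase-positive share was 11.3%, 2.34% and 1.88%. Across the 95 cells of set 1 with at least 4 members after thinning, correlation of the deposited log value with the mean of the S phase genes was most negative for *Cenpa* (Pearson r = -0.58), *Cdc20* (-0.47) and *Ube2c* (-0.37). It was highest for the condensin genes *Ncaph* (0.29) and *Smc4* (0.27) and for *Nuf2* (0.27). The cells share 1 library, and these values are a description.

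In mitosis-positive epithelium-like cells of set 1, of which there were 14, the fibroblast marker list summed to 895 CPM and the epithelial list to 6454 CPM, beside 222 and 11360 CPM in cells with no member. In set 3 the same lists gave 801 and 5741 CPM in positive cells and 1115 and 7572 CPM in cells with none. In set 2 they gave 1573 and 5495 CPM in positive cells and 1922 and 6813 CPM in cells with none. The smooth muscle list was at 214, 3158 and 698 CPM in positive epithelium-like cells of sets 1, 2 and 3 and at 301, 2269 and 1434 CPM in those with no member. The part of mixed droplets in these values was not tested.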

How the data were processed

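Libraries were labelled as 10x Chromium 3' with v3 chemistry, whereas the study's methods name another version of the kit. Per the labels, Cell Ranger 3.1.0 and mm10 were used, and the study states that droplets that were empty or held several cells were filtered, as were cells with much mitochondrial RNA. The table deposited by the authors holds natural log values, made by scaling each cell to a fixed total and adding 1 before the logarithm. The design had foreseen counts. UMIs were recovered from the steps of the values (11120281 values above 0, 100% whole within 0.05). Of 9784 rows, 9781 were used, which held 49.4 to 52.7% of UMIs per set and the rest of the totals lies in genes not analysed here. Barcodes shared between sets numbered 1 (sets 1 and 2), 0 (sets 1 and 3) and 13 (sets 2 and 3).

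Cells with at least 200 genes were integrated in Seurat 5.3.0 (R 4.3.3) over 20 dimensions, with 30 principal components and resolution 0.5. The members and related cell cycle genes were left out of the 2000 features. Clusters were named from 9 marker lists when at least 3 markers were carried, more than of any other list, unless the 10 leading genes held more markers of another list. Cluster 12 carried 17 epithelial markers but stayed unnamed, since *Cd52*, a leukocyte marker, and no epithelial one was among its leading genes. No doublet was removed here. Rates (CPM) were given exact Poisson intervals, shares Clopper-Pearson intervals, and log2 ratios the exact interval of a binomial split of both sums, all at 95%. A sum of 0 was set to 3 UMIs, which makes that ratio a bound. A gene needed 10 UMIs in both groups together to be counted against the 2-fold limit. Thinning left out 7, 342 and 693 cells under 900 UMIs. The steps were tested on simulated data. Python 3.11.15, numpy 2.4.6 and scipy 1.17.1 were used.

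Members and lists were chosen with earlier results of these data known. Named genes were 15 fixed members, the member with the highest and lowest median ratio of each role, the 3 highest and lowest of each list, and the 10 leading genes outside the members and cell cycle lists. Among the highest of the S phase list, only *Mcm10* is named, and the others are not reported here. The choice of co-detection cells after thinning replaced nothing in the design and was added after its values were seen, as were the settings that leave out or add whole clusters.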

Additional observations from a re-analysis of the deposited data

Results flagged for a closer look

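Opposite directions between sets were not tested, since each set is 1 library. The score ratio of epithelium-like over fibroblast-like cells had intervals on different sides of 0, at -1.20 in set 1, -0.078 in set 2 and 0.44 in set 3. The same held for 16 members. In sets 1 and 3 the log2 ratios were -1.78 and 0.63 for *Mki67*, -1.52 and 0.69 for *Cenpf*, -1.61 and 1.91 for *Cenpe*, and -1.25 and 0.89 for *Nusap1*. They were -1.88 and 0.98 for *Ccna2*, -1.13 and 1.15 for *Cdca8*, -1.24 and 0.78 for *Cdca3*, and -1.97 and 0.69 for *Cdk1*. They were -0.86 and 1.93 for *Ect2*, -0.81 and 0.40 for *Hmgb2*, and -1.50 and 1.64 for *Kif4*. *Bub1b* had -0.76 in set 1 and 1.66 in set 2. In sets 1, 2 and 3 the ratios were -0.84, 0.73 and 1.31 for *Ube2c*, -0.89, -0.24 and 0.54 for *Smc4*, -1.40, 0.25 and 0.66 for *Stmn1*, and 1.19, -1.91 and 1.27 for *Gas2l3*. The set 3 direction of the score turned with a stricter cell filter.

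Outside the cells analysed, the 97 cells of set 3 with fewer than 200 genes held 52 UMIs of the members, a rate of 914 CPM (95% Poisson interval 683 to 1198) at a median of 571 UMIs per cell.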

How the results depend on the processing

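No paired analysis was possible because there is only 1 library for each tissue, with no shared replicate numbers. Of 1117 values recomputed under other settings, 875 moved by less than their counting interval or count limit, 223 moved further and 19 changed sign. Causes were not tested. The low depth of sets 2 and 3 limits every member with few UMIs.

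The score ratio (log2, epithelium-like over fibroblast-like; main values -1.20, -0.078 and 0.44 in sets 1, 2 and 3) was -0.99, -0.61 and 0.15 with all features and cell cycle regression, changed together. That setting classed as fibroblast-like a cluster led by members (*Cenpf*, *Prc1* and *Cenpa*; 132 of its 182 cells in set 2), and as epithelium-like one led by *Myod1*, so its values do not bear on the classes independently of the members. Keeping cells of 500 genes or more gave -0.32 in set 2 and -0.13 in set 3. Without the 5% of cells with the most UMIs it was -0.93, -0.15 and 0.34. Without the 5 broad members it was -1.285, -0.147 and 0.504. In set 2 it was 0.076 without integration. Classing each cell on its own gave 0.038 in set 2 and 0.365 in set 3. As a difference in mean log value, another scale, it was -0.067, 0.028 and 0.042 in sets 1, 2 and 3. Thinned to 900 UMIs it was -0.66 in set 1 and 0.36 in set 3. Settings added after seeing the data gave -1.66, -0.16 and 0.37 without cluster 5, -0.99, 0.087 and 0.635 without cluster 6, and -1.12 in set 1 with cluster 12 counted as epithelium-like. Set 1 gave no value without integration, since none of its cells was then fibroblast-like.

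Members past 2-fold also moved. With all features and regression, 0, 0 and 3 were higher and 14 in set 2 were lower. With at least 500 genes, 1 and 3 were higher and 4 and 7 lower in sets 2 and 3. Without the 5% deepest cells, 17 and 4 were lower in sets 1 and 2 and 4 higher in set 3. In set 2, 1 was lower without integration and 4 were higher with cells classed one by one. With at least 50 UMIs, 0 were higher and 1 lower in set 2, and 1 lower in set 3. Without cluster 5, 1 was higher in set 2. Without cluster 6, 4 and 12 were higher and 1 and 1 lower in sets 2 and 3.

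Positive shares (%) of epithelium-like and fibroblast-like cells without the broad members were 5.98 and 9.03 in set 1, 1.36 and 2.08 in set 2, and 1.44 and 1.28 in set 3. Thinned to 1200 UMIs they were 9.27 and 10.8 in set 2 and 7.10 and 4.59 in set 3. With at least 2 members they were 15.9 and 14.4 in set 2, 12.1 and 7.16 in set 3, and 26.2 for fibroblast-like cells of set 1. With at least 5 they were 5.13 and 9.72, 0.775 and 2.13, and 1.41 and 1.40. With at least 500 genes they were 10.7 for fibroblast-like cells of set 2, and 5.88 and 6.82 in set 3. Fibroblast-like cells of set 2 had 10.2 with all features and regression, the member-led cluster included, and 4.71 with cells classed one by one. Epithelium-like cells of set 3 had 4.14 without the deepest cells and 4.17 without cluster 5.

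Single ratios that changed sign are listed only where the main interval did not hold 0. With all features and regression they were *Ube2c* (-0.070) and *Stmn1* (-0.37) in set 2 and *Cenpf* (-0.33) in set 3. *Smc4* had 0.0063 in set 2 without integration and *Bub1b* 0.066 in set 1 without cluster 6. With at least 500 genes, *Stmn1* had -0.047 in set 2, and in set 3 *Mki67* had -0.25, *Cenpf* -0.38, *Ccna2* -0.12, *Cdca3* -0.26, *Cdk1* -0.19, *Smc4* -0.019 and *Stmn1* -0.046.

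Co-detection, as the median log2 fold with members at 0 set to 3 UMIs, was -1.30 in set 1 as designed and 5.66 with cells chosen after thinning, a choice made after seeing the data. In set 3 it was 3.59 and 5.30, and in set 2 3.55 and 4.56. Against UMIs expected from each cluster's rate in cells with none of the other members, also added, the median was 7.02 times in set 2 over 23 members and 24.0 times in set 3 over 24, and 3 members of set 1 had a value.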
